A study of Mus musculus with 2 samples.

Results

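The genes of 8 secreted chemokines and of the cytokine interleukin 6 were followed through the cells of the brain vessel wall. They were Cxcl1, Cxcl2, Cxcl12, Ccl2, Ccl7, Ccl11, Ccl19, Cx3cl1 and Il6, 9 of the 30905 genes in the count matrices, chosen by name as the ligands of interest in vascular cells. The 2 libraries, replicate 1 and replicate 2, were single-cell RNA libraries of brain cells from male Dmp1Cre-COX8Dendra2 mice aged 4 to 6 weeks. In these mice a Cre recombinase driven by Dmp1 sequences switches on Dendra2, a fluorescent protein that COX8 sequence directs to mitochondria, and Dendra2-positive cells were taken by flow sorting. Every cell analysed therefore comes from 1 sorted group, with no treatment, no second genotype and no Dendra2-negative cells compared here. The labels do not say how many animals gave each library or whether the libraries came from separate animals. The p-values here therefore measure only how far the class differences vary between these 2 libraries, estimated with help from all genes. That spread may be technical.

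Chemokines are small secreted proteins that draw white blood cells along a gradient by binding G protein-coupled receptors. Some, such as Cxcl12, are made by resting tissue and hold cells in place, while others, such as Cxcl1, Cxcl2, Ccl2 and Ccl7, are switched on within hours of inflammatory signals, often through the transcription factor NF-kB. Interleukin 6 is induced by many of the same signals and acts through the shared receptor subunit gp130, encoded by Il6st. In brain vessels these ligands can be made by the endothelium, by the pericytes and smooth muscle cells that wrap it, and by the macrophages of the vessel surround.

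Barcodes with at least 500 genes, at least 1000 unique molecular identifiers (UMIs, 1 per captured transcript) and under 20% mitochondrially encoded UMIs were kept, 7697 in replicate 1 and 6427 in replicate 2. They were put in classes by a few genes, scaled to 10000 UMIs per cell. Smooth muscle cells (Acta2 at least 80) numbered 3597 and 790 in replicates 1 and 2. Transitional cells between smooth muscle and pericytes (Acta2 from 20 to 80, Rgs5 at least 80) numbered 737 and 354. Pericytes (Vtn at least 50, Acta2 under 20) numbered 2392 and 3298, and endothelial cells (Cldn5 at least 5, Vtn under 20) 248 and 1125. Macrophages (at least 5 UMIs of C1qa, C1qb and C1qc together) numbered 103 and 17. Because Acta2, Rgs5, Vtn, Cldn5 and the C1q genes set the classes, their own levels are not results. Of the fixed markers that the rules did not use, 5 of 5 of smooth muscle, 6 of 6 of pericytes, 7 of 7 of endothelium and 7 of 7 of macrophages reached 50 CPM (a gene's UMIs scaled to a common total of all UMIs of the class) in their class in both libraries. That level alone does not part the classes, since pericytes of replicate 1 also held 5 of 6 smooth muscle markers above it, and smooth muscle 5 of 8 pericyte markers.

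The libraries stood apart, and this touches most of the values that follow. The median cell had 6897 UMIs in replicate 1 and 3016 in replicate 2, and 14 barcodes occurred in both. The summed level of the immediate-early genes, such as Fos, Jun and Egr1, which are switched on within minutes of stimulation, was 817 to 973 CPM in the vascular classes of replicate 1 and 16790 to 27071 CPM in those of replicate 2. Heat-shock genes were also higher in replicate 2, at 6689 to 16786 CPM against 2541 to 3220 CPM. Each ligand is therefore given per library. Intervals of 95% are exact Poisson for CPM values and cover counting error only. Shares of cells are also given after every cell was thinned to 2000 UMIs, with shallower cells left out (86 of 2392 and 830 of 3298 pericytes, 23 and 26 smooth muscle cells, 24 and 32 transitional cells, 10 and 125 endothelial cells). Oligodendrocytes, at a median of 16171 and 10915 UMIs per cell, served as a class that should lack most of these ligands. For a ligand they lack, their level shows the background of free RNA.

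Among the members, Cxcl1, Cxcl2 and Il6 share a short sequence just before their start. It is shown because all 3 were far higher in replicate 2. RefSeq promoters (GRCm38.p6, 250 bases before to 50 after each start) were matched for 6 of 9 members, namely Cxcl1, Cxcl2, Cxcl12, Ccl19, Cx3cl1 and Il6. Promoters of Ccl2, Ccl7 and Ccl11 were not analysed here. The motif, GGGA, then 1 base of any kind (N), then TTTCC, is a form of the sequence bound by NF-kB. It was chosen after the promoters were read and was searched on both strands. The motif occurred in 3 of the 6 promoters and in 135 of 32851 promoters of the same 300-base length, 0.411%. All 3 matches lie on the gene's own strand, the plus strand, from 71 to 62 bases before the RefSeq start of Cxcl1, from 97 to 88 before that of Cxcl2 and from 44 to 35 before that of Il6. The 100-base windows run 5′ to 3′ on the plus strand, at chr5:90891145-90891244 for Cxcl1, chr5:90903799-90903898 for Cxcl2 and chr5:30013014-30013113 for Il6, and capitals mark the motif.
Cxcl1: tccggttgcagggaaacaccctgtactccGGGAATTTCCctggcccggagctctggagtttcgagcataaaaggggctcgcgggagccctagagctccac
Cxcl2: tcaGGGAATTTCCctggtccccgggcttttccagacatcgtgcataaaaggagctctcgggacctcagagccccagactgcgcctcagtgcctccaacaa
Il6: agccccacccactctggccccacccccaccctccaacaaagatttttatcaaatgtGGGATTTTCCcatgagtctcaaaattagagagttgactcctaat
The letters are identical in the motifs of Cxcl1 and Cxcl2, neighbouring genes on chromosome 5 (chr5:90891241-90893115 and chr5:90903871-90905938, plus strand, GRCm38, GENCODE M21). A match describes letters only, and no match in the windows of Cxcl12, Ccl19 and Cx3cl1 says nothing about the factor.

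**Figure D1:**
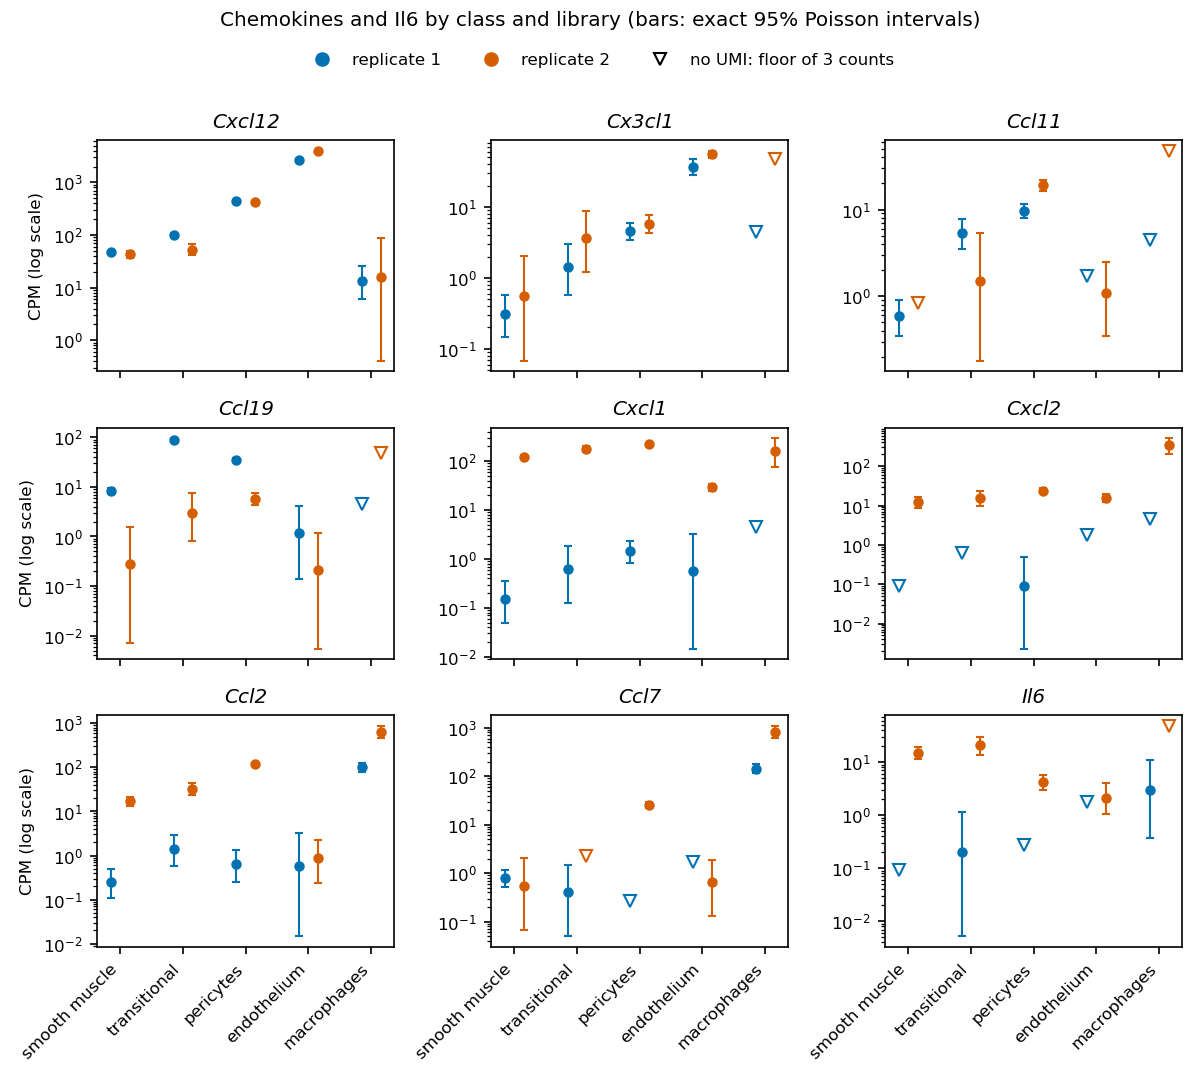
Level of each ligand (CPM, log axis) in smooth muscle, transitional, pericyte, endothelial and macrophage classes, replicate 1 in blue and replicate 2 in orange, with exact 95% Poisson intervals; open triangles mark classes with no UMI, drawn at the floor of 3 counts. The 2 libraries lie close together for Cxcl12 and Cx3cl1 and far apart for Cxcl1, Cxcl2, Ccl2 and Il6.

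Cxcl1, which draws neutrophils through the receptor Cxcr2, was nearly absent from replicate 1 and was the most widely detected inducible ligand of replicate 2. Smooth muscle held 0.154 CPM (5 UMIs) in replicate 1 and 120 CPM (95% interval 109 to 132) in replicate 2. Transitional cells held 0.615 CPM (3 UMIs) and 176 CPM (154 to 200). Pericytes held 1.45 CPM (16 UMIs) and 223 CPM (213 to 233), from 1983 UMIs in 568 cells. Endothelium was the lowest vascular class of replicate 2, at 29.2 CPM (24.5 to 34.6) against 0.577 CPM (1 UMI) in replicate 1. Among the cells of replicate 2 thinned to 2000 UMIs, Cxcl1 was seen in 17.7% of pericytes, 17.2% of transitional cells, 11.3% of smooth muscle cells and 3.39% of endothelial cells, against 0.749% of oligodendrocytes. Without thinning these shares were 17.2%, 22.3%, 17.2%, 5.87% and 2.75%. The mural shares stand well clear of the background, and the endothelial one does so by less, with 22.1% of its UMIs in a single cell.

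Cxcl2, the close relative of Cxcl1 with the same receptor, was found in few cells. Replicate 1 had a single UMI in the vascular classes, in pericytes (0.0908 CPM). In replicate 2 pericytes held 24.0 CPM (214 UMIs in 81 cells), transitional cells 15.5 CPM (21 UMIs in 8 cells) and smooth muscle 12.0 CPM (43 UMIs in 18 cells). Endothelium held 15.9 CPM in replicate 2, but 41 of its 74 UMIs, 55.4%, were in 1 cell. Of thinned cells in replicate 2, 2.36% of pericytes and 0.899% of endothelial cells had a Cxcl2 UMI, and no oligodendrocyte of either library had one. Macrophages of replicate 2 held 21 UMIs in 3 of 17 cells (335 CPM), the highest Cxcl2 level of any class but from very few cells, and those of replicate 1 held none.

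Ccl2, the main attractant of monocytes through Ccr2, had most of its UMIs in macrophages in replicate 1 and in pericytes in replicate 2. Class sizes differed as well, with 103 and 17 macrophages and 2392 and 3298 pericytes in replicates 1 and 2. In replicate 1 macrophages held 101 CPM (77.9 to 128, 67 UMIs in 11 of 103 cells) and no vascular class exceeded 1.44 CPM. In replicate 2 pericytes held 116 CPM (109 to 124, 1037 UMIs in 213 cells), transitional cells 32.5 CPM, smooth muscle 17.0 CPM and endothelium 0.860 CPM (4 UMIs). Macrophages of replicate 2 held 639 CPM (457 to 870, 40 UMIs in 5 of 17 cells). Macrophages thus had the higher Ccl2 CPM in both libraries, while their share of all Ccl2 UMIs was 70.5% in replicate 1 and pericytes held 81.3% in replicate 2. After thinning, 6.32% of pericytes, 2.92% of transitional cells and 1.40% of smooth muscle cells of replicate 2 had a Ccl2 UMI, against 0.600% of oligodendrocytes. Before thinning the smooth muscle share (2.15%, median 4454.5 UMIs per cell) was below that of the deeper oligodendrocytes (2.52%). Whether Ccl2 in smooth muscle stood above the background thus depends on the measure, and which measure is the fairer was not tested.

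Ccl7, a ligand of Ccr2 as well, is encoded beside Ccl2 on chromosome 11 (chr11:82045712-82047525 and chr11:82035571-82037453, both plus strand). Likewise most of the Ccl7 UMIs were in macrophages in replicate 1 and in pericytes in replicate 2, with the higher CPM in macrophages in both. Pericytes held no Ccl7 UMI in replicate 1, where 3 counts would be 0.272 CPM, and 25.8 CPM (22.6 to 29.4, 230 UMIs in 65 cells) in replicate 2. Macrophages held 144 CPM (117 to 176, 96 UMIs in 15 cells) in replicate 1 and 831 CPM in replicate 2, where 46 of 52 UMIs (88.5%) were in 1 cell. Smooth muscle, transitional cells and endothelium held at most 0.799 CPM in either library. Pericytes contributed 74.7% of the Ccl7 UMIs of replicate 2, and macrophages 76.8% of those of replicate 1. The 10 macrophage markers summed to 28.1 to 60.1 CPM in the vascular classes. The class rule itself keeps cells with many C1q UMIs out of the pericytes, and the part of macrophage RNA in their Ccl2 and Ccl7 was not tested.

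Ccl11, or eotaxin, attracts eosinophils through Ccr3, and here its vascular UMIs were mostly in pericytes. Pericytes held 9.63 CPM (7.88 to 11.6, 106 UMIs in 57 cells) in replicate 1 and 19.0 CPM (16.2 to 22.1, 169 UMIs in 90 cells) in replicate 2. Transitional cells held 5.33 and 1.48 CPM, with 12 of the 26 UMIs of replicate 1 in 1 cell. Smooth muscle held 0.584 CPM (19 UMIs) and no UMI, and endothelium no UMI and 1.08 CPM (5 UMIs). Ccl11 was seen in the pericytes of both libraries, at 1.31% and 2.39% of thinned cells. Fibroblast-marker cells, only 18 and 19 in number, held more per UMI, at 125 and 310 CPM, and fibroblast markers summed to 71.3 and 79.4 CPM in pericytes against at most 9.34 CPM in smooth muscle and endothelium. When cells with at least 3 UMIs of fibroblast or oligodendrocyte markers were left out, the lower Ccl11 of smooth muscle and of endothelium relative to pericytes was larger still, with log2 fold changes of -5.44 and -4.46.

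Ccl19, which guides lymphocytes and dendritic cells through Ccr7, was higher in replicate 1 in all 3 mural classes. Transitional cells held 87.4 CPM (79.3 to 96.1) in replicate 1 and 2.96 CPM (4 UMIs) in replicate 2. Pericytes held 34.8 CPM (31.4 to 38.4) and 5.72 CPM (4.26 to 7.53), and smooth muscle 8.36 CPM (7.40 to 9.41) and 0.278 CPM (1 UMI). Endothelium had 2 UMIs and 1 UMI. Few cells carried the transcript: in replicate 1 it was seen in 34 transitional cells (4.61%), 83 pericytes (3.47%) and 39 smooth muscle cells (1.08%). The 10 highest cells held 68.3% of the transitional UMIs, 81.6% of the smooth muscle UMIs and 43.6% of the pericyte UMIs. The 18 fibroblast-marker cells of replicate 1 together held 399 CPM, with a UMI in 6 of them. The fibroblast-marker sum of transitional cells was 56 CPM in replicate 1, of which Col1a1 made 43.7 CPM, and 2.22 CPM in replicate 2. In pericytes that sum was 71.3 and 79.4 CPM and in smooth muscle 9.34 and 7.80 CPM, while Ccl19 was far lower in replicate 2 of both. The part of fibroblast RNA in Ccl19 was not tested. A second Ccl19 identifier, on an unplaced scaffold, held no UMI, and near-identical copies of this gene make its level uncertain wherever the counting divided reads between them.

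Cxcl12, the ligand of Cxcr4 that keeps leukocytes and progenitors in place, was by far the most abundant member in UMIs, which are counted once per captured transcript end whatever the transcript's length. Endothelium held 2689 and 3977 CPM in replicates 1 and 2, a mean of 3333 ± 910 CPM (SD, n = 2). Pericytes held 448 CPM (435 to 461) and 423 CPM (410 to 437), 435 ± 17.7 CPM. Transitional cells held 102 and 52.5 CPM, and smooth muscle 47.7 and 42.9 CPM. This order of endothelium, pericytes, transitional cells and smooth muscle was the same in both libraries, with intervals that did not overlap between endothelium and pericytes. The last step of the order, from transitional cells to smooth muscle, did not pass the test given further on. After thinning, 82.6% and 89.2% of endothelial cells and 49.1% and 32.0% of pericytes had a Cxcl12 UMI. The thinned shares were 8.65% and 5.58% in smooth muscle, 16.0% and 7.28% in transitional cells and 6.58% and 10.3% in oligodendrocytes. In replicate 2 neither mural share exceeded that of oligodendrocytes. Oligodendrocytes of replicate 2 held 119 CPM, however, from 661 UMIs in 110 cells with up to 38 in 1 cell. Whether that is free RNA was not tested, so their share sets no background for Cxcl12. Of the 154 smooth muscle UMIs of replicate 2, 43 were in 1 cell. Unthinned, the shares were 89.1% and 92.5% of endothelial cells, 70.6% and 37.8% of pericytes, 36.2% and 12.1% of transitional cells, 29.4% and 11.6% of smooth muscle cells, and 17.4% and 25.2% of oligodendrocytes.

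Cx3cl1, or fractalkine, is a membrane-bound chemokine whose receptor Cx3cr1 marks microglia and monocytes, and among the vascular classes it was highest in endothelium. Endothelium held 37.0 CPM (28.5 to 47.2) in replicate 1 and 55.3 CPM (48.7 to 62.4) in replicate 2. Pericytes held 4.54 CPM (3.37 to 5.99) and 5.84 CPM (4.36 to 7.65). Transitional cells held 1.44 and 3.70 CPM and smooth muscle 0.307 and 0.557 CPM. Its order over the classes was the same as that of Cxcl12 in both libraries, at levels lower by more than an order of magnitude. After thinning, 6.88% and 9.92% of endothelial cells had a Cx3cl1 UMI (19.8% and 17.4% before thinning). Oligodendrocytes held 0.280 CPM and no UMI. Endothelium held 27.5% of all Cx3cl1 UMIs in replicate 1 and 75.6% in replicate 2, and cells of none of the named classes held 41.6% and 5.88%, at 40.0 and 15.2 CPM. Of the Cxcl12 UMIs endothelium held 36.9% and 75.6%, and pericytes 39.1% and 15.4%.

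Il6 was at or under its floor in replicate 1 and was higher in smooth muscle and transitional cells than in the other vascular classes of replicate 2. Smooth muscle held no UMI in replicate 1, where 3 counts would be 0.0922 CPM, and 15.0 CPM (11.3 to 19.6, 54 UMIs in 29 cells) in replicate 2. Transitional cells held 0.205 CPM (1 UMI) and 20.7 CPM (13.8 to 29.9, 28 UMIs in 12 cells). Pericytes held no UMI and 4.15 CPM (2.92 to 5.72, 37 UMIs in 17 cells), and endothelium no UMI and 2.15 CPM (1.03 to 3.95, 10 UMIs in 5 cells). Of the Il6 UMIs of replicate 2, smooth muscle held 34.8%, pericytes 23.9% and transitional cells 18.1%, although pericytes outnumbered smooth muscle cells. After thinning, 2.14% of smooth muscle cells, 2.63% of transitional cells and 0.440% of pericytes had an Il6 UMI, against 0.231% of oligodendrocytes (3.67%, 3.39%, 0.515% and 0.686% before thinning). The shares in smooth muscle and transitional cells exceeded that of oligodendrocytes with and without thinning, and the pericyte share, from 17 cells, did so only after thinning. Fibroblast-marker cells of replicate 2 held 3 UMIs in 3 of 19 cells (44.2 CPM, 9.13 to 129). Macrophages, a common source of interleukin 6, held 2 UMIs in replicate 1 and none in the 17 cells of replicate 2.

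The classes were compared in 1 edgeR quasi-likelihood model of UMIs summed per class and library, with the library as a block, over 12300 genes, and p-values are Benjamini-Hochberg adjusted over all genes. 8 members could be tested, and Ccl7 did not pass the filter on low counts. The library block takes out a difference between replicates that all classes share, and for Il6, Cxcl1, Cxcl2 and Ccl2, which were at or near 0 in replicate 1, the contrast between classes comes almost wholly from replicate 2. Fitted folds of genes at 0 in a class depend on the prior count and are no bounds.

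**Figure D2:**
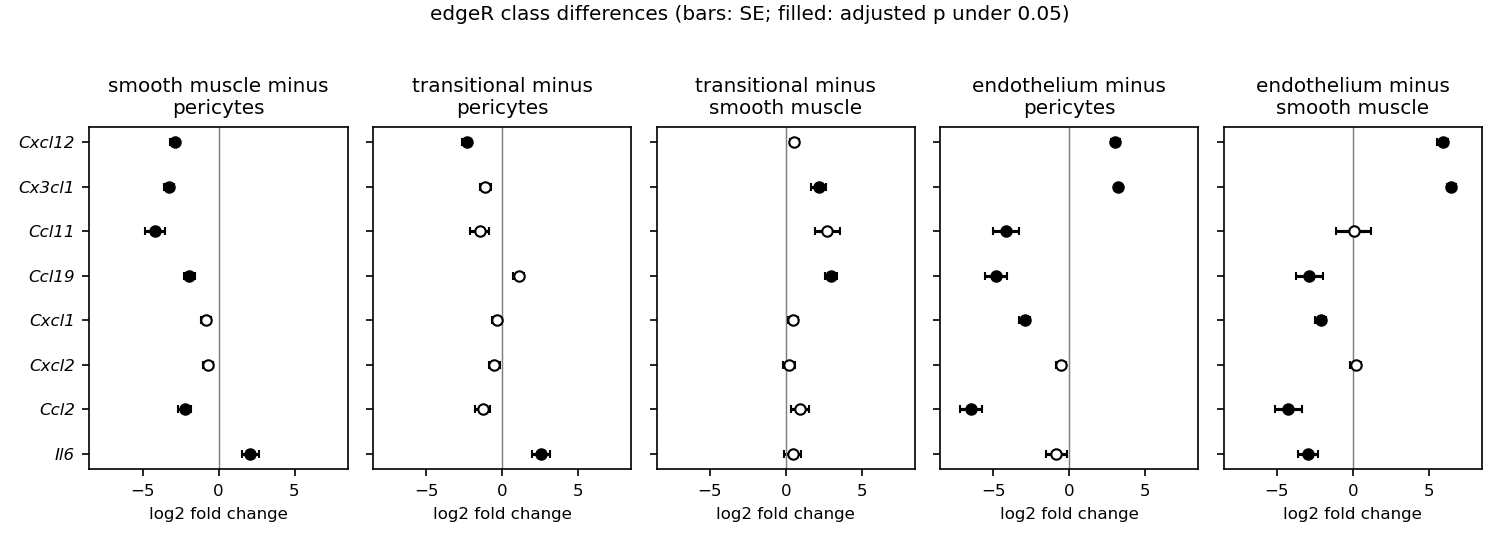
Difference between classes for the 8 tested ligands (log2 fold change ± SE, edgeR), 1 panel per contrast; filled points have an adjusted p under 0.05. Cxcl12 and Cx3cl1 lie to the endothelial side in both endothelial panels, and Ccl2, Cxcl1 and Ccl19 to the mural side.

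Endothelium was set against pericytes first, the contrast of the barrier-forming cells with the cells that wrap them. Of the 8 tested members, 2 were higher in endothelium, where 22.9% of all genes were, and 4 were lower, where 23.7% of all genes were (46.6% in either direction). Cxcl12 (log2 fold change 3.03 ± 0.30, SE, edgeR adjusted p = 9.27e-05; 2.58 and 3.29 in replicates 1 and 2) and Cx3cl1 (3.21 ± 0.21, adjusted p = 8.89e-06; 2.95 and 3.25) were higher in both libraries. Ccl11 was lower in both (-4.16 ± 0.84, edgeR adjusted p = 0.00429). Ccl19 (-4.80 ± 0.73, edgeR adjusted p = 0.00102), Cxcl1 (-2.94 ± 0.37, 0.000333) and Ccl2 (-6.48 ± 0.73, 0.000185) were lower as well, but these 3 calls were lost without the library block, at edgeR adjusted p of 0.126, 0.575 and 0.222. The Ccl2 difference came from replicate 2, with log2 differences of -0.09 in replicate 1, from 1 and 7 UMIs, and -6.68 in replicate 2. Il6 (-0.86, edgeR adjusted p = 0.346) and Cxcl2 (-0.53, 0.212) did not pass. The endothelial markers summed to 557 and 1132 CPM in the pericyte class of replicates 1 and 2, and their part in its Cxcl12 and Cx3cl1 levels was not tested.

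Endothelium was then set against smooth muscle. Of the 8 members, 2 were higher in endothelium (22.6% of all genes) and 4 lower (27.9% of all genes, 50.4% in either direction). Cxcl12 differed by 5.91 ± 0.35 (edgeR adjusted p = 4.15e-06) and Cx3cl1 by 6.47 ± 0.29 (1.28e-06) on the log2 scale, the largest separations among the tested members in this contrast, with values of 5.33 and 6.28 and of 5.69 and 5.96 in the 2 libraries. Il6 (-2.96 ± 0.65, edgeR adjusted p = 0.00600), Cxcl1 (-2.12 ± 0.36, 0.00163), Ccl2 (-4.24 ± 0.87, 0.00428) and Ccl19 (-2.88 ± 0.89, 0.0273) were lower in endothelium. Without the library block these 4 calls were lost, at edgeR adjusted p from 0.286 for Ccl19 to 0.648 for Cxcl1. In replicate 1, from 1 UMI of each gene in endothelium and 5 and 8 in smooth muscle, the log2 differences of Cxcl1 and Ccl2 were of the opposite sign, 0.78 and 0.45. With DESeq2 in place of edgeR, Il6 (adjusted p = 0.248), Cxcl1 (0.130) and Ccl2 (0.305) did not pass. Cxcl2 (0.19) and Ccl11 (0.05) were not called. The log2 differences of Cxcl2 in replicates 1 and 2 were 0 and 0.16. Their plain mean, with no refit, was -0.34 when the highest cell of each class was left out.

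Smooth muscle was set against pericytes, the ends of the mural lineage. Of the 8 members, 1 was higher in smooth muscle, where 20% of all genes were, and 5 were lower, where 18.9% of all genes were (38.9% in either direction). The member that was higher was Il6 (log2 fold change 2.10 ± 0.55, edgeR adjusted p = 0.0183), with no UMI in either class in replicate 1 and a difference of 2.10 in replicate 2. Cxcl12 (-2.88 ± 0.30, edgeR adjusted p = 0.000189), Cx3cl1 (-3.27 ± 0.33, 0.000141) and Ccl11 (-4.21 ± 0.66, 0.00148) were lower in smooth muscle of both libraries. Ccl19 (-1.92 ± 0.38, edgeR adjusted p = 0.00470) and Ccl2 (-2.24 ± 0.45, 0.00549) were lower too. Cxcl1 (-0.82, edgeR adjusted p = 0.0689) and Cxcl2 (-0.72, 0.131) did not pass. Without the library block Il6 (edgeR adjusted p = 0.672), Ccl19 (0.496) and Ccl2 (0.511) were lost, and with DESeq2 Il6 (0.317) and Ccl2 (0.298) were.

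Transitional cells were compared with both mural neighbours. Against pericytes, 1 of 8 members was higher (9.71% of all genes) and 1 lower (6.76%, or 16.5% in either direction). Il6 was higher (2.56 ± 0.60, edgeR adjusted p = 0.0232; 0.812 without the library block and 0.148 with DESeq2) and Cxcl12 was lower (-2.33 ± 0.30, edgeR adjusted p = 0.00162; -2.03 and -2.87 in replicates 1 and 2). Against smooth muscle, 2 of 8 members were higher (6.07% of all genes) and none lower (6.69%, or 12.8% in either direction). They were Ccl19 (3.0 ± 0.38, edgeR adjusted p = 0.00226; 2.98 and 2.57) and Cx3cl1 (2.16 ± 0.49, 0.0269; 1.35 and 2.21), and without the library block both were lost, at 0.396 and 0.251. The Ccl19 difference from smooth muscle was 3.33 (edgeR adjusted p = 0.000257) when cells with fibroblast or oligodendrocyte markers were left out. Against pericytes Ccl19 was 1.08 (edgeR adjusted p = 0.0834), with opposite signs of 1.43 and -0.78 in the 2 libraries. Without the highest cell of each class the plain mean of the 2 library differences was -0.43. That mean is not a refit and does not compare with 1.08, and in replicate 2 the cell left out held 3 of the 4 transitional UMIs. Cxcl12 did not separate transitional cells from smooth muscle (0.55, edgeR adjusted p = 0.305). Of the calls, Cx3cl1 in transitional cells against smooth muscle held in 5 of 10 tested alternatives, Il6 against pericytes in 6 of 10 for both smooth muscle and transitional cells, Ccl19 in endothelium against smooth muscle in 6 of 10 and Il6 there in 7 of 10. Over the 8 members the median log2 fold change was -1.90 for endothelium and -2.08 for smooth muscle against pericytes, beside medians of -0.05 and -0.03 over all genes.

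The 2 libraries were compared within each class, 1 library against 1, so no test applies and the intervals cover counting error only. In pericytes 5 of 9 members were at least 2-fold higher in replicate 2, where 5.43% of 13293 genes were, and 1 was at least 2-fold higher in replicate 1, where 10.4% were. Cxcl1 was 153-fold higher in replicate 2 (94.1 to 269) and Ccl2 183-fold (88.5 to 457). Cxcl2, with 1 UMI in replicate 1, gave a ratio of 264 with a lower limit of 47.0, while Ccl7 was at least 94.8-fold and Il6 at least 15.2-fold higher against the floor of 3 counts. Ranked by this ratio among the 13293 genes, with genes without a UMI in replicate 1 set at the floor, Ccl2 was at place 9 and Cxcl1 at 10. Cxcl2, Ccl7 and Il6 rest on 1 UMI or on the floor in replicate 1, so their places are not given. Ccl11 was 1.97-fold higher (1.54 to 2.54) and Cx3cl1 1.29-fold (0.855 to 1.93). Cxcl12 was 0.944 of its replicate 1 level (0.905 to 0.985), and Ccl19 was 6.08-fold higher in replicate 1 (4.53 to 8.31).

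**Figure D3:**
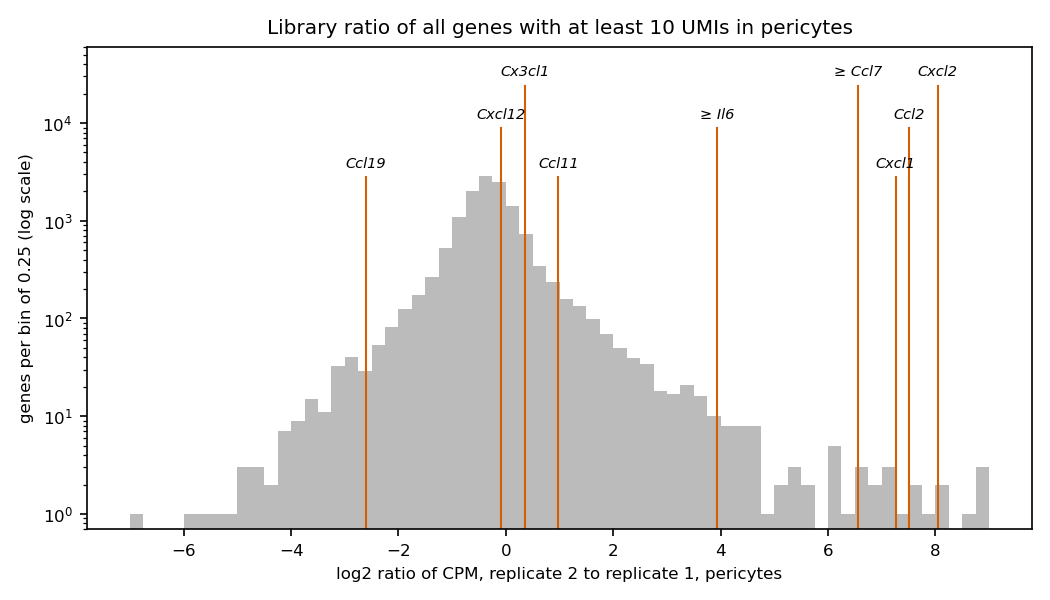
Histogram of the log2 ratio of CPM in replicate 2 to replicate 1 for the 13293 genes with at least 10 UMIs in pericytes (bins of 0.25, log count axis), with the 9 ligands as vertical lines; ≥ marks lower bounds. Cxcl1, Cxcl2, Ccl2, Ccl7 and Il6 lie in the far right tail, Cxcl12 and Cx3cl1 near the bulk, and Ccl19 to the left.

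The other mural classes were compared in the same way. In smooth muscle 4 of 9 members were at least 2-fold higher in replicate 2 (7.53% of genes) and 1 in replicate 1 (11.2%), and in transitional cells 5 of 8 (3.86%) and 2 (14.7%). Cxcl1 was 783-fold higher in smooth muscle (333 to 2423) and 286-fold in transitional cells (96.7 to 1397). Il6 was at least 163-fold higher in smooth muscle and had a ratio of 101 in transitional cells (16.7 to 4130). Ccl2 was 69.1-fold higher in smooth muscle (32.9 to 167) and 22.7-fold in transitional cells (10.1 to 59.7). Ccl19 was higher in replicate 1 in both, with ratios of 30.02 (5.34 to 1190) and 29.5 (11.4 to 109), and Cxcl12 in transitional cells was 0.517 of its replicate 1 level (0.398 to 0.665).

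In endothelium 2 of 5 members with at least 10 UMIs were at least 2-fold higher in replicate 2 (4.21% of genes) and none in replicate 1 (10% of genes). They were Cxcl1, with a ratio of 50.6 (8.94 to 2015), and Cxcl2, at least 9.19-fold higher. Ccl2 in endothelium had 1 and 4 UMIs, a ratio of 1.49 (0.147 to 73.4). Cxcl12 and Cx3cl1 were 1.48-fold (1.43 to 1.53) and 1.5-fold (1.13 to 2.00) higher. Whether the library ratio differs between classes was not tested. In macrophages 4 of 5 members were at least 2-fold higher in replicate 2 (20% of genes), Ccl2 by 6.35-fold (4.18 to 9.54) and Ccl7 by 5.76-fold (4.03 to 8.16). In oligodendrocytes 3 of 3 were (5.67% of genes). Cxcl1 and Ccl2 there were at most 3.79 CPM, and Cxcl12 was at 48.1 and 119 CPM.

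Other genes moved between the libraries alongside the ligands. A list of 21 genes of the NF-kB pathway and its early targets was followed. At least 2-fold higher in replicate 2 were 13 of 18 measured in smooth muscle (7.53% of all genes) and 12 of 17 in transitional cells (3.86%). In pericytes 10 of 18 were (5.43%), and in endothelium 7 of 19 (4.21%). Median log2 ratios of the list were 3.38, 1.99, 1.65 and 0.69 in these classes, beside -0.22, -0.32, -0.31 and -0.26 over all genes. Nfkbia, the inhibitor that NF-kB itself induces, was 13.1-fold higher in smooth muscle, 6.08-fold in pericytes and 2.40-fold in endothelium. Nfkbiz, a nuclear cofactor needed for Il6 induction, was 49.0-fold, 11.7-fold and 22.6-fold higher. Socs3, a feedback inhibitor of gp130 signalling, was 36.4-fold, 25.9-fold and 6.33-fold higher. The immediate-early list moved more completely. At least 2-fold higher in replicate 2 were 16 of 16 measured genes in smooth muscle (7.53% of all genes) and in endothelium (4.21%). In transitional cells 15 of 16 were (3.86% of all genes), and in pericytes 16 of 17 (5.43%). Immediate-early level, depth and library cannot be told apart in these ratios.

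Within replicate 2, cells were parted at the median of their summed immediate-early genes in each class. In pericytes below and at or above that median (1649 cells each, medians of 2246 and 2722 UMIs) Cxcl1 was at 94.5 and 336 CPM, seen in 8.32% and 24.7% of cells thinned to 2000 UMIs. Ccl7 was at 9.80 and 40.0 CPM, Cxcl2 at 13.4 and 33.4 CPM, and Ccl2 at 87.5 and 142 CPM. Il6, from few cells, showed no common direction. It was at 4.07 and 4.23 CPM in pericytes and 14.9 and 15.1 CPM in smooth muscle, seen in 0.302% and 0.542% and in 1.92% and 2.36% of thinned cells. In transitional cells Il6 was at 24.1 and 17.8 CPM and in endothelium at 3.14 and 1.24 CPM. Cxcl12 was lower in the upper group in pericytes, at 598 and 268 CPM, and in endothelium, at 4423 and 3566 CPM. In smooth muscle Cxcl12 was at 31.0 and 54.1 CPM, though seen in 5.92% and 5.25% of thinned cells. A single cell held 43 of the 100 UMIs of that upper group. Without it all smooth muscle cells of replicate 2 together stood at 31.0 CPM. Cxcl1 was higher in the upper group of each class, at 94.7 and 144 CPM in smooth muscle, 94.7 and 245 CPM in transitional cells and 9.87 and 47.1 CPM in endothelium. The lower group of the pericytes of replicate 2 still held Cxcl1 far above the 1.45 CPM of all pericytes of replicate 1. Its Fos was also far higher, at 766 CPM against 1.54 CPM, so that group was low only within replicate 2. The part of immediate-early level in the library difference was not tested. Cells of 1 library are not replicates, so these values describe replicate 2 and carry no test.

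**Figure D4:**
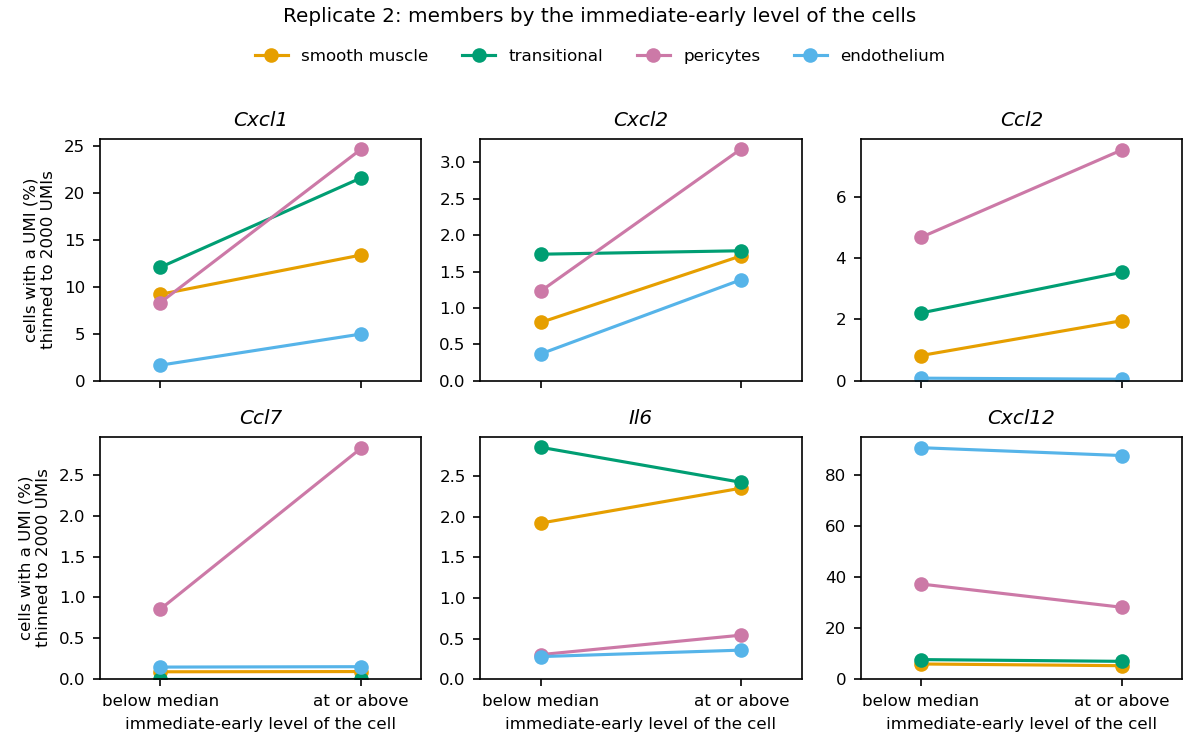
Share of replicate 2 cells with a UMI after thinning to 2000 UMIs, in cells below and at or above the median of summed immediate-early genes of their class, for 6 ligands and 4 classes. Cxcl1 is higher above the median in all 4 classes, while Cxcl12 in pericytes is at 37.3% below the median and 28.2% above it.

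The ligands were also compared cell by cell in the 3298 pericytes of replicate 2, against the number expected if the genes were independent within 5 strata of cell depth. Cxcl1 and Cxcl2 were seen together in 67 cells where 17.4 were expected, 3.84 times as many, and 82.7% of the 81 Cxcl2-positive cells held Cxcl1 (11.8% of the 568 Cxcl1-positive cells held Cxcl2). Cxcl1 and Ccl2 shared 127 cells (44.8 expected), and Ccl2 and Ccl7 23 cells (5.19 expected, 4.43 times). Cxcl2 and Ccl2 shared 29 cells (6.52 expected, 4.45 times), the highest ratio of the pairs. Cxcl1, Cxcl2, Ccl2 and Ccl7 thus overlapped in the same pericytes more than expected within the depth strata. Cxcl12 overlapped with Cxcl1 in 201 cells (229 expected, 0.877 times), with Ccl2 in 78 (0.900 times) and with Ccl7 in 22 (0.840 times). Its ratio was 0.999 with Cxcl2, 1.14 with Ccl11 and 1.57 with Cx3cl1 (36 cells). Ccl11 overlapped with Cxcl1 in 27 cells (1.5 times), with Ccl7 in 6 (2.83 times) and with Cxcl2 in 1. In smooth muscle of replicate 2, Cxcl1 and Il6 shared 13 cells (5.70 expected, 2.28 times), 44.8% of the 29 Il6-positive cells. In endothelium of replicate 2, Cxcl12 and Cx3cl1 shared 179 cells, 0.977 times the number expected. These pairs share a library and its free RNA, and are descriptions of it.

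**Figure D5:**
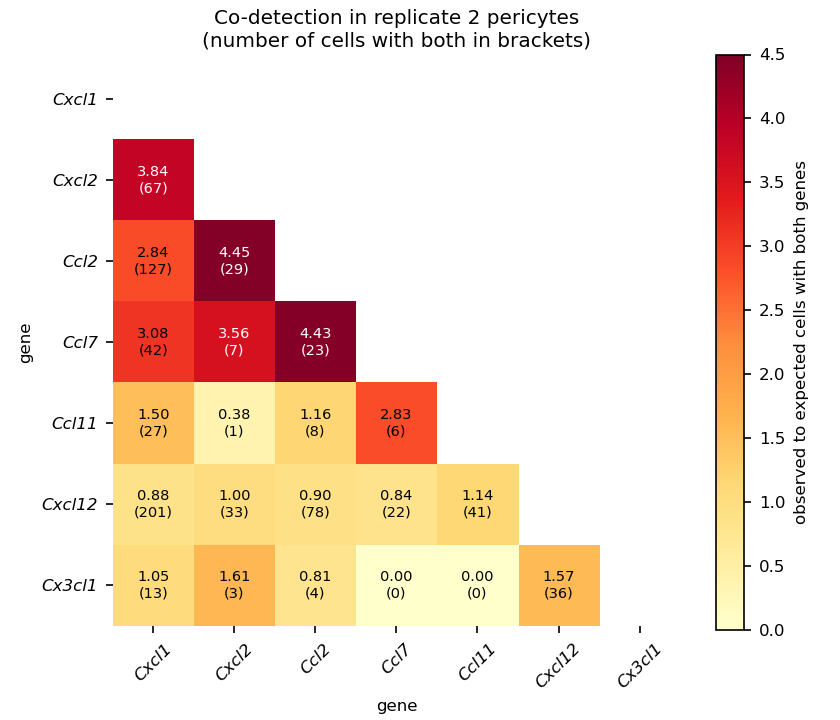
Cells of replicate 2 pericytes with a UMI of both genes, for pairs of the 7 ligands with at least 20 positive cells; colour is observed over expected within 5 strata of depth and numbers are cell counts. The block of Cxcl1, Cxcl2, Ccl2 and Ccl7 stands above 1 and the Cxcl12 pairs with Cxcl1 and Ccl2 below it.

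Among the receptors of these ligands only Ackr3 was abundant in the vascular classes. Of 20 listed chemokine receptors 3 could be tested. Ackr3, the scavenging receptor that removes Cxcl12, was at 507 and 461 CPM in pericytes, 836 and 784 CPM in transitional cells, 569 and 373 CPM in smooth muscle and 138 and 103 CPM in endothelium, replicates 1 and 2 in turn. It was lower in endothelium than in pericytes (log2 fold change -1.95 ± 0.17, edgeR adjusted p = 4.01e-05) and than in smooth muscle (-2.27 ± 0.17, 1.46e-05), opposite in direction to Cxcl12. It was higher in transitional cells than in pericytes (0.89 ± 0.16, edgeR adjusted p = 0.00758). Cxcr4, the signalling receptor of Cxcl12, was at 8.45 and 12.1 CPM in pericytes and 6.93 and 4.09 CPM in endothelium and passed no contrast. Ccr9, the receptor of Ccl25, was lower in smooth muscle than in pericytes (-1.65 ± 0.21, edgeR adjusted p = 0.000869) and had no UMI in endothelium. Cxcr2 and Ccr2 were each at most 0.215 CPM, and Cx3cr1 at most 1.03 CPM. Of the 3 tested receptors, the counts higher and lower were 0 and 1 in smooth muscle against pericytes (38.9% of all genes called in either direction). They were 1 and 0 in transitional cells against pericytes (16.5%) and also against smooth muscle (12.8%). In endothelium they were 0 and 2 against pericytes (46.6%) and against smooth muscle (50.4%).

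The Il6 signalling genes were measured more fully, with 15 of 19 listed genes tested. Il6ra, the receptor subunit that binds interleukin 6, was at 31.8 and 22.4 CPM in endothelium, 13.8 and 14.5 CPM in smooth muscle and 3.18 and 5.39 CPM in pericytes. It was higher in endothelium (2.70 ± 0.33, edgeR adjusted p = 0.000311) and in smooth muscle (2.11 ± 0.32, 0.00127) than in pericytes, and lower in transitional cells than in smooth muscle (-2.16 ± 0.41, 0.0134). Il6st, encoding gp130, ran the other way, at 132 and 110 CPM in pericytes and 52.8 and 60.4 CPM in smooth muscle (-0.73 ± 0.13, edgeR adjusted p = 0.00324). In all, 5 of the 15 were higher and 3 lower in smooth muscle than in pericytes (38.9% of all genes called). In transitional cells 1 was higher and 2 lower than in pericytes (16.5%), and 0 and 3 than in smooth muscle (12.8%). In endothelium 3 were higher and 5 lower than in pericytes (46.6% of all genes called), and 2 and 6 than in smooth muscle (50.4%), among them Cebpb, a transcription factor of the Il6 promoter (-3.53 ± 0.47 and -5.04 ± 0.49, edgeR adjusted p = 0.000497 and 6.67e-05).

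Of 10 tested receptors and adaptors that induce chemokines, 2 were higher and 5 lower in smooth muscle than in pericytes, and 2 higher and 4 lower in endothelium than in pericytes, where 38.9% and 46.6% of all genes were called in either direction. Il1r1, the interleukin 1 receptor, was at 53.9 and 45.3 CPM in pericytes and 17.3 and 12.3 CPM in endothelium (-1.71 ± 0.14, edgeR adjusted p = 3.56e-05). Tnfrsf1a, a receptor of tumour necrosis factor, was at 157 and 118 CPM in pericytes, 75.6 and 40.6 CPM in endothelium (-1.23 ± 0.14, edgeR adjusted p = 0.000232) and 71.4 and 57.4 CPM in smooth muscle. The remaining counts, higher and lower, were 2 and 1 in transitional cells against pericytes (16.5% of all genes called) and 1 and 0 against smooth muscle (12.8%). In endothelium against smooth muscle they were 4 and 4 (50.4%). Of 18 tested NF-kB pathway genes, 3 were higher and 1 lower in smooth muscle than in pericytes, 5 and 0 in endothelium than in pericytes, 3 and 3 in endothelium than in smooth muscle, and none passed with transitional cells. Those 4 of 18 and 5 of 18 are smaller shares than the 38.9% and 46.6% of all genes called in these contrasts. Icam1, an adhesion molecule for leukocytes, was at 13.3 and 158 CPM in endothelium against 1.27 and 10.1 CPM in pericytes (3.92 ± 0.39, edgeR adjusted p = 9.51e-05), and Vcam1 was also higher in endothelium (3.12 ± 0.41, 0.000413).

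Of 28 other chemokine ligands listed, 6 could be tested and few had more than traces. Ccl27a, known as a skin chemokine, was at 26.5 and 29.0 CPM in smooth muscle and 18.3 and 11.3 CPM in pericytes (1.27 ± 0.20, edgeR adjusted p = 0.00141). Ccl25, a thymus and gut chemokine, was at 37.3 and 17.4 CPM in pericytes and 18.0 and 5.57 CPM in smooth muscle (-0.77 ± 0.26, edgeR adjusted p = 0.0471). Cxcl10, an interferon-induced ligand, was at 11.1 CPM in smooth muscle of replicate 2 and at most 3.44 CPM elsewhere in the vascular classes. Of the 6 tested ligands, the counts higher and lower were 1 and 2 in smooth muscle against pericytes (38.9% of all genes called in either direction). In endothelium they were 1 and 1 against pericytes (46.6%) and 2 and 1 against smooth muscle (50.4%). None was called in transitional cells against pericytes (16.5%) or smooth muscle (12.8%).

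For each member with at least 50 UMIs, the 3 genes with the most similar profile were sought by Pearson's r of log2 CPM over the 8 sums of class and library. Cxcl1 was nearest to Tnfaip3 (0.992), an NF-kB target that restrains NF-kB, to Epc2 (0.991) and to Cebpd (0.990). Cxcl2 was nearest to Brd2, Lars2 and Btg2 (0.990 to 0.992), and Il6 to Tubb4b, Ppp1r15a and Slc25a25 (0.988 to 0.990). Cxcl12 was nearest to Dock9 (0.996), Sec14l1 (0.994) and Ap1s2 (0.994), and Cx3cl1 to Tmem245, Rictor and Layn (0.991 to 0.993). Ccl2 was nearest to Zbtb11, Gm26532 and 3930402G23Rik (0.964 to 0.974), Ccl11 to Srpx2 (0.995), Tlr12 (0.971) and Abca8a (0.970), and Ccl19 to Bcl2, Thap3 and 4930524J08Rik (0.961 to 0.964). The 8 points share 2 libraries, and Cxcl1, Cxcl2, Ccl2 and Il6 are at or near 0 in all 4 sums of replicate 1, so these names are a description with no test.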

How the data were processed

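The 2 matrices of 1 group of sorted brain cells hold raw UMI counts, whole numbers for each gene in each barcode, as deposited by the authors. Their tools, in the submitters' processing notes, were Cell Ranger 3.1.0, whose version also stands in the matrix headers, CASAVA 1.8 and Seurat 2.3.4, without a stated role for each. The sources used here name no genome build, and 30843 of 30905 gene identifiers are in GENCODE M21 (GRCm38), the source of gene positions. The libraries hold 59026190 and 26218090 UMIs over 8236 and 7077 barcodes. The members, gene lists and classes were chosen with earlier results of these data known.

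Barcodes meeting more than 1 class rule (21 and 12) were left out, and 599 and 831 met none of the rules for a vascular class or macrophages. No doublet caller was run. As alternatives, the 6% of cells with the most UMIs of each class, or cells with markers of other types, were left out. UMIs were summed per class and library and tested with edgeR 4.0.16 (R 4.3.3; TMM, filterByExpr, glmQLFit, Benjamini-Hochberg 0.05), with the library as a block because all classes of a library come from 1 sorted preparation. That test was checked on simulated counts. Macrophages, with 17 cells in replicate 2, were under the minimum of 30 cells per library and were not tested. CPM, Poisson, Clopper-Pearson and conditional binomial intervals used scipy 1.17.1. Named genes were all 9 members, at most 4 called genes of lowest adjusted p per other list and contrast, and the 3 genes most like each member; further genes of the lists that are given with values were chosen after their values were seen.

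Alternatives were RLE scaling, DESeq2 1.42.0, no filter on low counts, no library block, stricter cell filters and class thresholds, barcodes of more than 1 class kept, only cells low in immediate-early genes, each replicate or the highest cell left out, and thinning to 1000 UMIs. Cells low in immediate-early genes were those below the median of their class and library. In replicate 2 the vascular classes so cut still held Fos at 440 to 766 CPM.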

Additional observations from a re-analysis of the deposited data

How the results depend on the processing

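In the contrasts between classes, 22 of 40 member results were called and 9 of them held under all 10 tested alternatives: the 4 Cxcl12 calls, the Cx3cl1 calls in smooth muscle and in endothelium against pericytes and in endothelium against smooth muscle, and the Ccl11 calls in smooth muscle and endothelium against pericytes. Among member calls the replicate block mattered most: 13 were lost without it. Members called numbered 6 in smooth muscle against pericytes, 2 in transitional cells against pericytes, 2 in transitional cells against smooth muscle, 6 in endothelium against pericytes and 6 in endothelium against smooth muscle. Of all genes, 38.9%, 16.5%, 12.8%, 46.6% and 50.4% were called in that order. With no replicate block the member counts became 3, 1, 0, 3 and 2. Shares of all genes under the alternatives are not given here, so the counts that follow describe the members only. DESeq2 gave 1 in transitional cells against pericytes and 3 in endothelium against smooth muscle. No filter on low counts gave 6 in transitional cells against pericytes, leaving out the highest 6% of UMIs gave 4, and the stricter cell filter gave 1 there and 1 in transitional cells against smooth muscle. Cells low in immediate-early genes gave 1 in transitional cells against smooth muscle and 3 in endothelium against smooth muscle. Between libraries, the stricter cell filter gave 2 members higher in replicate 1 in smooth muscle, and cells low in immediate-early genes gave 1 higher in replicate 1 in transitional cells and 1 higher in replicate 2 in endothelium.

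Signs turned only where no call had been made, except without replicate 2, where Cxcl1 and Ccl2 in endothelium against smooth muscle became 0.78 and 0.45 (log2), against -2.28 and -4.23 without replicate 1. Ccl11 in that contrast became -0.041 with no filter on low counts and -0.74 with the stricter cell filter, and Cxcl2 became -1.14 without the highest 6% of UMIs and -0.57 in cells low in immediate-early genes. In those cells Cxcl1 became 0.078 in smooth muscle and 0.11 in transitional cells against pericytes, and Cxcl2 0.54 in transitional cells against pericytes. The cause was not tested. Leaving out a replicate gave values only, since no residual degrees of freedom remain, and the macrophage contrast with its alternatives was not run. Thinned to 2000 UMIs, 4 members in replicate 1 and 8 in replicate 2 reached 1% of cells in a vascular class, and 3 and 8 did at 1000 UMIs. Il6 and Cxcl2, with at most 1 UMI in any vascular class of replicate 1, could not be compared between classes at that depth.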

Other observations

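Cells outside the vascular classes also carried the ligands. The fibroblast-marker cells, 18 in replicate 1 and 19 in replicate 2, held Cxcl1 at 5.96 CPM (1 UMI) and 900 CPM (61 UMIs in 9 cells), the highest Cxcl1 level of any class, and Cxcl12 at 405 and 428 CPM, close to the level of pericytes. Their Ccl19 was at 399 and 44.2 CPM, higher in replicate 1 as in the mural classes, and 18 of their 21 Ccl11 UMIs in replicate 2 were in 1 cell. The cells that met no class rule held Ccl19 at 82.0 and 0.761 CPM and Cx3cl1 at 40.0 and 15.2 CPM. With so few fibroblast-marker cells these values carry no test.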
